A study of Mus musculus with 8 samples.

Results

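The potassium channel genes of mouse cortex were followed across a within-animal comparison in 4 adult male wild-type mice, 3 months old. Members were all genes of the deposited count table whose symbol starts with Kcn, except the choroid plexus marker Kcnj13, which gave 77 of 14884 genes. Each animal (mice 33, 34, 35 and 36) had received, by stereotactic injection into the primary somatosensory cortex, an inhibitor of miR-218-5p made of locked nucleic acid (group LNA218) on one side. The opposite hemisphere of the same animal had received a scrambled negative control (group NC). The inhibitor was on the right in mice 33, 34 and 36 and on the left in mouse 35. Tissue at the injected site was taken 10 days later and its polyadenylated RNA was sequenced, which gave 8 libraries, 4 per group. All 4 control hemispheres were also injected, and uninjected cortex was not analysed here. Mature microRNAs carry no poly(A) tail, so the degree to which miR-218-5p was blocked was not read.

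Potassium channels let potassium leave the cell, which holds the resting potential, ends the action potential and sets how often a neuron fires. Voltage-gated channels (Kcna to Kcnd, Kcnh, Kcnq) open on depolarisation, calcium- and sodium-gated channels open when these ions accumulate during firing, and inward rectifiers (Kcnj) and two-pore-domain channels (Kcnk) carry resting, leak and transmitter-gated currents. Silent subunits (Kcnf, Kcng, Kcns, Kcnv) form no channel alone and join Kcnb subunits, and auxiliary subunits (Kcnab, Kcne, Kcnip) bind the pore subunits and change their gating or traffic. MicroRNAs lower the messenger RNAs that pair with their seed, bases 2 to 8, through sites that lie mostly in the 3′ untranslated region (3′ UTR).

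The inhibitor's target and the sites that pair with it are printed because the study's question, what changes when miR-218-5p is blocked, bears on members that hold such a site. The mature microRNA is from RefSeq (GRCm38.p6), where the same 5′ to 3′ sequence comes from Mir218-1 on chromosome 5 and Mir218-2 on chromosome 11, and capitals mark the seed.
miR-218-5p: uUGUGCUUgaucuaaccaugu
An 8mer match was found for 7 members in the 3′ UTR of their reference transcript; its letters AAGCACAA are in capitals within 30 bases of the transcript strand (5′ to 3′, GENCODE M21, GRCm38). Kcnip3 held 2 of them.
Kcnb2: tgaacgctgcagggaagaagAAGCACAAcc
Kcnh1: ctttcttgacatttttaaacAAGCACAAat
Kcnip3 first site: tcatcccgaccaagacaaaaAAGCACAAac
Kcnip3 second site: cccagctcgccaacattctaAAGCACAAac
Kcnj16: atatggctggtattgaatttAAGCACAAac
Kcnk1: tttctacccacctcacactaAAGCACAAtg
Kcnq3: gctgcagaaagatggatgttAAGCACAAgc
Kcnt1: ctctaaactcctgatctgagAAGCACAAtt
These genes lie on chromosomes 1 (Kcnb2, Kcnh1), 2 (Kcnip3, Kcnt1), 8 (Kcnk1), 11 (Kcnj16) and 15 (Kcnq3). The shorter 7mer-m8 match AAGCACA, which every 8mer contains, was found in 17 of the 75 members with an annotated 3′ UTR (22.7%), against 14.2% of 13743 tested genes. The 8mer was in 9.33% of those members and in 4.08% of tested genes. The members' 3′ UTRs were also longer, with a median of 1526 bases against 1002, and a longer region holds more matches of any kind. For Kcnk2 and Kcnma1 the reference transcript has no annotated 3′ UTR.

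Library totals ran from 17409900 to 25154700 estimated counts. Of the 77 members, 74 passed the filter on low counts, as did 14506 genes in all; Kcne2, Kcng3 and Kcnrg, the last a regulator and no channel subunit, did not. All 7 markers of cortical excitatory neurons were detected, with a summed level of 5050 to 6040 CPM (counts scaled to library size) in LNA218 and 5800 to 5940 in NC. The choroid plexus markers, 9 of 9 detected and none at 0 throughout, summed to 2630 and 1720 CPM on the LNA218 side of mice 34 and 36 and to between 25.3 and 89.9 in the other 6. Summed striatal markers (6 of 6 detected) ran from 151 to 296 CPM in LNA218 and from 122 to 281 in NC. In mouse 34 the LNA218 library stood farthest from its own control, with a correlation of their deviations from the group means of -0.63, against 0.08, 0.45 and 0.19 in mice 33, 35 and 36.

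Levels within the control hemispheres spanned more than 3 orders of magnitude and were led by an auxiliary subunit. Divided by transcript length, Kcnab2, the cytoplasmic beta subunit of Kcna channels, had 560 ± 14.2 CPM per kilobase in NC (SD, n = 4). The next, Kcnc1, a fast delayed rectifier of fast-spiking neurons, had 74.9 ± 4.37. The order then ran through Kcnip2 (68.1 ± 3.43 CPM per kilobase), a calcium-binding subunit of Kcnd channels, and Kcnmb4 (65.9 ± 8.29), the neuronal beta subunit of the large-conductance calcium-gated channel. Kcnh3 (61.0 ± 7.53), the inward rectifier Kcnj4 (60.3 ± 9.56) and the two-pore-domain channel Kcnk1 (56.4 ± 2.53) also lay above 50, as did 8 members in all. Below Kcnab2, neighbours among these 6 genes differed by less than the sum of their SDs. Between 10 and 50 CPM per kilobase there were 32 members, between 1 and 10 there were 25, and 12 lay below 1. One reference transcript per gene set the length, so a gene that uses a shorter or longer form has a shifted level.

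**Figure D1:**
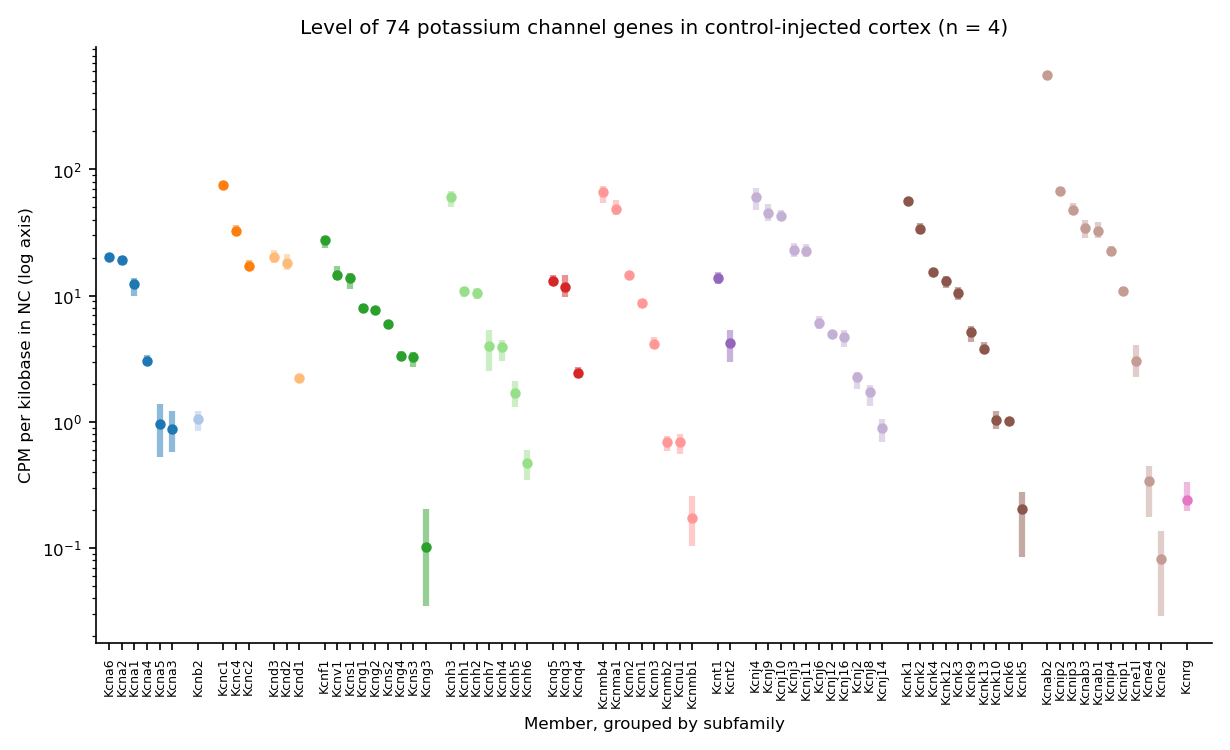
Level of 74 of the 77 members in the 4 NC libraries, as CPM per kilobase of reference transcript on a log axis, grouped by subfamily and ordered within it. Points are means and bars run from the lowest to the highest library; Kcnab2 stands alone at 560, and Kcne2, at 0.0817, is the lowest.

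Each subfamily had its own leading gene, and the groups with the largest sums differed little between the hemispheres. Kcna summed to 56.6 ± 3.1 CPM per kilobase in NC and 51.4 ± 6.95 in LNA218 (SD, n = 4). Kcnq summed to 85.6 ± 8.25 and 77.1 ± 7.42. Kcnh summed to 92.3 ± 7.18 and 92.4 ± 6.94, Kcnk to 140 ± 6.75 and 141 ± 4.04, and silent subunits to 84.3 ± 4.25 and 85.6 ± 6.98. In each of these the hemispheres differed by less than either SD. Auxiliary subunits summed to 780 ± 17.4 CPM per kilobase in NC and 744 ± 67.6 in LNA218 (SD, n = 4), and Kcnab2 made up 71.8% of the NC sum. Inward rectifiers summed to 215 ± 13.6 and 213 ± 20.8, spread over several genes with Kcnj4 in front at 28.1%. Kcnc channels summed to 165 ± 8.84 and 158 ± 19.9, and calcium-gated channels to 144 ± 4.73 and 139 ± 5.91. Kcnt1, a sodium-gated channel, held 76.5% of the sum of its pair, and Kcnh3 66.1% of the Kcnh sum. Expression was shared more evenly in Kcna, where Kcna6 led with 35.5%, and among silent subunits, where Kcnf1 led with 32.8%. The CPM of all members together was 5720 ± 363 in LNA218 and 6030 ± 157 in NC. By library it was 5710, 5550, 6220 and 5380 in LNA218 and 6110, 6090, 6130 and 5800 in NC, for mice 33, 34, 35 and 36 in that order, lower in LNA218 in 3 of 4 animals and overlapping between the groups.

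At an adjusted p of 0.05, no potassium channel gene differed between the hemispheres. The smallest adjusted p of a member was 0.999, and 0 of 14506 genes passed (0%), with 0.533 the smallest over all genes (edgeR's quasi-likelihood test, animal as block, Benjamini-Hochberg adjustment). At an unadjusted p under 0.05 no member was lower, against 87 genes in all (0.6%), and none was higher, against 160 genes (1.1%). Those are 247 genes together, where chance alone would give about 725. The test thus gave few small p-values for genes of any kind, and the absence of members among them says little about the members. DESeq2 called 13 of all genes and edgeR's likelihood-ratio test 11, neither any member, and limma-voom called 0 genes. Over the members the median log2 fold change (LNA218 minus NC) was -0.052, with 28 above 0 and 46 below (62.2%), beside a median of -0.01 and 52.8% below over all tested genes. With an animal left out the members' median was -0.024 (without mouse 33), -0.031 (34), -0.112 (35) and -0.049 (36). By animal, the members' median difference was -0.073, -0.111, 0.041 and -0.034 (mice 33 to 36), on both sides of 0. The p-values rest on the spread between these 4 animals, moderated for each gene by the spread of other genes. In tissue, a lower level from fewer cells of a type cannot be told apart from less RNA per cell.

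The intervals limit the average change over the 4 animals, 1 gene at a time, and single animals went further, as given below. The 95% interval of the fold change lay within 2-fold either way in 71 of 74 members (95.9%; all genes 91.2%) and within 1.5-fold in 58 (78.4%; all genes 70.9%). The exceptions to the 2-fold bound were the auxiliary subunit Kcne4, the ether-a-go-go-related Kcnh7 and the two-pore-domain channel Kcnk5. In counts simulated from these libraries, the same test recovered 88 of 100 genes changed by 1 on the log2 scale and 99 of 100 changed by 2. Each gene was simulated on its own, without the trend with base composition that the real libraries share across genes, as given below. These shares therefore do not give the recovery to be had in the real libraries.

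Kcnc1, with 232, 226, 266 and 234 CPM in LNA218 of mice 33, 34, 35 and 36 and 235, 229, 256 and 225 in NC, had a log2 fold change of 0.02 ± 0.09 (SE), a 95% interval of -0.18 to 0.22 and an adjusted p of 0.999 (edgeR's quasi-likelihood test with Benjamini-Hochberg adjustment). Its differences were between -0.02 and 0.06 in the 4 animals, and the groups overlapped.

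Kcne4, which binds Kcna and Kcnq channels and reduces their current, was the only member higher in LNA218 in 4 of 4 animals. Upper-quartile scaling gave 3 such members and the correction for GC content and length 4, with the share over all genes not counted. Kcne4 had 1.24, 1.4, 1.58 and 1.21 CPM in LNA218 and 0.468, 1.18, 1.05 and 0.926 in NC, from estimated counts of 22, 35, 33 and 23 and of 10, 24, 24 and 16. All 4 LNA218 values lay above all 4 NC values, with mouse 33 the widest apart. The log2 fold change was 0.61 ± 0.30 (SE), with a 95% interval of -0.07 to 1.3. It was 1 of 74 members (1.35%) higher in every animal, against 4.58% of all tested genes, and 1 member with groups apart upward, against 0.731%. No member had groups apart downward, against 0.648%.

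Members lower in LNA218 in 4 of 4 animals were Kcna2, Kcnh6, Kcnk6 and Kcnv1, 4 of 74 (5.41%) against 4.05% of all tested genes. Kcna2, an axonal channel of low threshold, had 211, 145, 211 and 192 CPM in LNA218 and 226, 239, 226 and 203 in NC. The LNA218 library of mouse 34 was the lowest by far, the other 3 animals differed by little, and the groups overlapped. The log2 fold change was -0.25 ± 0.13 (SE), with a 95% interval of -0.55 to 0.05. It was -0.09 without mouse 34 and -0.31 without mouse 36. Kcnh6, an ether-a-go-go-related channel, had 1.01, 1.0, 1.39 and 1.58 CPM in LNA218 and 1.17, 1.38, 1.79 and 2.03 in NC, a log2 fold change of -0.35 ± 0.24. Its differences were alike in 3 animals (-0.43, -0.35 and -0.34 in mice 34, 35 and 36) and smaller in mouse 33 (-0.19), at a level of 1 to 2 CPM. Kcnv1, a silent subunit, had a log2 fold change of -0.15 ± 0.11, with -0.39 in mouse 34 and between -0.12 and -0.04 in the others.

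**Figure D2:**
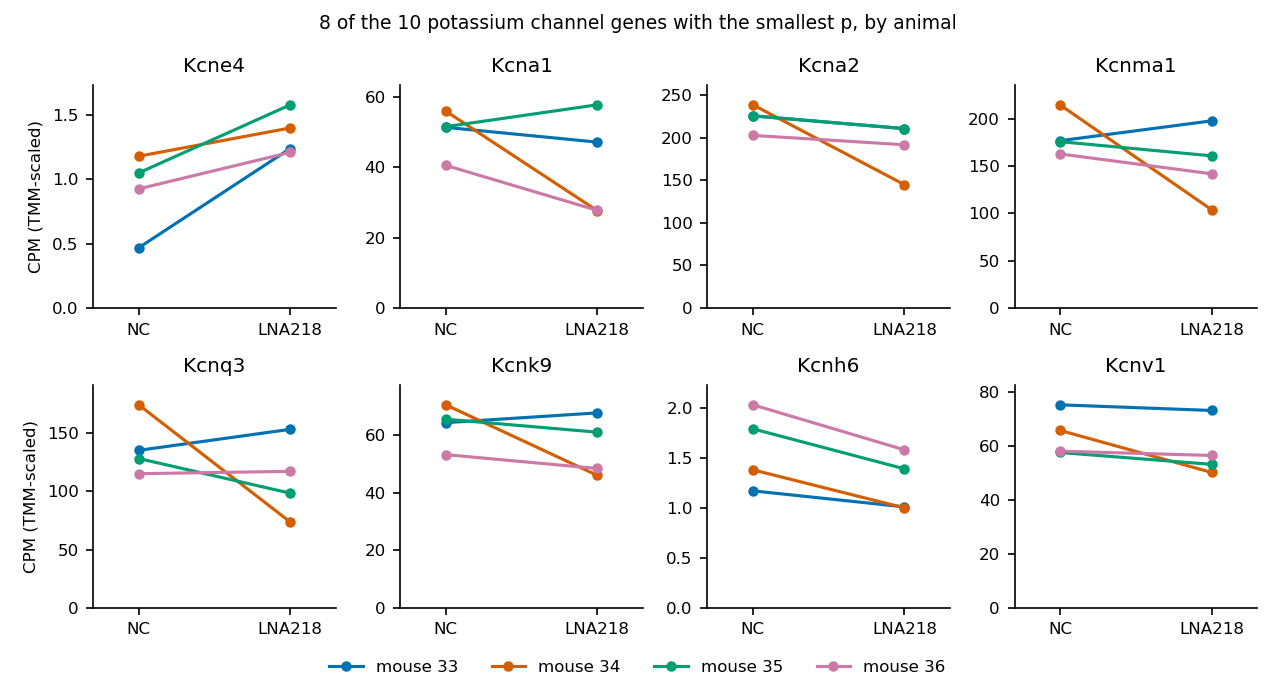
CPM in the NC and LNA218 hemispheres of each animal for 8 of the 10 members with the smallest p, with 1 line per animal and axes that start at 0. In Kcna1, Kcna2, Kcnma1, Kcnq3 and Kcnk9 the line of mouse 34 runs from the highest NC value to the lowest LNA218 value, and in Kcne4 all 4 lines slope upward.

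Kcna1, the axonal partner of Kcna2, had 47.1, 27.6, 57.7 and 27.7 CPM in LNA218 and 51.3, 55.9, 51.5 and 40.5 in NC. It was near its control in mouse 33, above it in mouse 35 and clearly below it in mice 34 and 36, so the LNA218 group was split and overlapped NC. The log2 fold change was -0.38 ± 0.19 (SE), with a 95% interval of -0.81 to 0.06. It was -0.15 without mouse 34, -0.56 without mouse 35 and -0.20 with a term for hemisphere. Of the other Kcna genes, Kcna6, the most expressed per kilobase, had a log2 fold change of 0.03 ± 0.11.

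Kcnma1, the pore of the large-conductance calcium-gated channel, and Kcnq3, a subunit of the channels of the M-current, shared a pattern that rested on mouse 34. Kcnma1 had 198, 104, 161 and 142 CPM in LNA218 and 177, 215, 176 and 163 in NC. Kcnq3 had 153, 73.6, 98.3 and 117 in LNA218 and 135, 174, 128 and 115 in NC. In both genes the LNA218 library of mouse 34 was the lowest of the 8 and its NC library the highest, and mouse 33 went the other way. Their log2 fold changes were -0.30 ± 0.18 and -0.35 ± 0.22 (SE), and they were -0.05 and -0.06 without mouse 34 but -0.45 and -0.53 without mouse 33.

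Kcnk9, a leak channel, had 67.7, 46.0, 61.0 and 48.4 CPM in LNA218 and 64.3, 70.5, 65.5 and 53.2 in NC. Its log2 fold change of -0.19 ± 0.13 (SE) became -0.05 without mouse 34 and -0.28 without mouse 33. The most abundant genes of the remaining groups lay near 0 with overlapping groups: Kcnd2, the dendritic A-type channel, at -0.13 ± 0.18 (0.11 without mouse 34), Kcnf1 at -0.04 ± 0.12 (0.10 without mouse 33) and Kcnh3 at 0.00 ± 0.12. Kcnj10, the inward rectifier of astrocytes that clears potassium, stood at -0.10 ± 0.10 and Kcnab2 at -0.10 ± 0.11. Kcnab2 was at -0.17 without mouse 34, -0.03 without mouse 33 and -0.16 ± 0.07 with the correction for GC content and length.

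By subfamily, no group had a member that passed, and the lowest medians went with the lowest values of mouse 34. The 6 tested Kcna genes had a median log2 fold change of -0.182, with 4 below 0. Their median differences were -0.132, -0.617, 0.090 and -0.008 in mice 33, 34, 35 and 36, so mouse 35 was on the other side of 0. The 4 Kcnq genes had a median of -0.146 (-0.478 in mouse 34, between -0.099 and 0.055 in the other 3), and the 3 Kcnd genes -0.110 (-0.559 in mouse 34, 0.244 in mouse 33). Without mouse 34 the Kcna, Kcnq and Kcnd medians were -0.073, -0.025 and 0.049, and without mouse 33 they were -0.081, -0.222 and -0.256. The 4 Kcnc genes had a median of -0.103, with mouse 36 the lowest at -0.249.

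Other subfamilies centred near the median of all genes. Kcnj stood at -0.052 (11 genes, 8 below 0), Kcnk at -0.025 (10 genes, 7 below), calcium-gated channels at -0.037 (8 genes, 5 below) and silent subunits at -0.012 (8 genes, 4 below; 0.006 with upper-quartile scaling). Kcnh stood at 0.005 (7 genes, 2 below) and auxiliary subunits at 0.002 (9 genes, 4 below). These 6 medians each changed sign with some animal left out: without mouse 33 Kcnj was at 0.058, Kcnk at 0.006 and silent subunits at 0.039, without mouse 34 Kcnh was at -0.072 and calcium-gated channels at 0.012, and without mouse 36 auxiliary subunits were at -0.023. Kcnb and the sodium-gated channels have 2 tested members each and are given no median: Kcnb2, Kcnt1 and Kcnt2 had log2 fold changes of -0.17 ± 0.24, 0.01 ± 0.09 and -0.19 ± 0.25 (SE).

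Among channels named here after their values were seen, several of the transmitter-gated, leak and afterhyperpolarisation currents were close to their controls on average. Single animals differed by more, with log2 differences of -0.86 for Kcnj3 and -0.67 for Kcnn3 in mouse 34. In mouse 33 it was -0.76 for Kcnj8 and 0.41 for Kcnj6. Kcnj3, Kcnj6 and Kcnj9, which form the channels opened by G proteins, had log2 fold changes of -0.14 ± 0.17, -0.05 ± 0.16 and -0.02 ± 0.13 (SE). Kcnj11, the pore of the ATP-sensitive channel of neurons, stood at 0.03 ± 0.11, and Kcnj8, its counterpart in mural cells, at -0.05 ± 0.22. The small-conductance calcium-gated Kcnn1, Kcnn2 and Kcnn3 stood at 0.11 ± 0.12, -0.09 ± 0.10 and -0.07 ± 0.18, and the leak channels Kcnk2 and Kcnk3 at -0.13 ± 0.11 and -0.12 ± 0.12. In each of these genes the groups overlapped.

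The largest positive values after Kcne4 were those of Kcnk5, at 0.25 ± 0.39 and under 1 CPM, and of the silent subunit Kcns1. Kcns1 had 32.0, 51.9, 49.6 and 42.5 CPM in LNA218 and 40.8, 30.3, 38.6 and 38.8 in NC. Mouse 33 was below its control and the other 3 animals were above theirs, so the groups overlapped. The log2 fold change was 0.23 ± 0.17 (SE), 0.43 without mouse 33 and 0.06 without mouse 34. Over the 74 tested members the log2 fold changes ran from -0.38 (Kcna1, Kcnh7) to 0.61 (Kcne4).

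**Figure D3:**
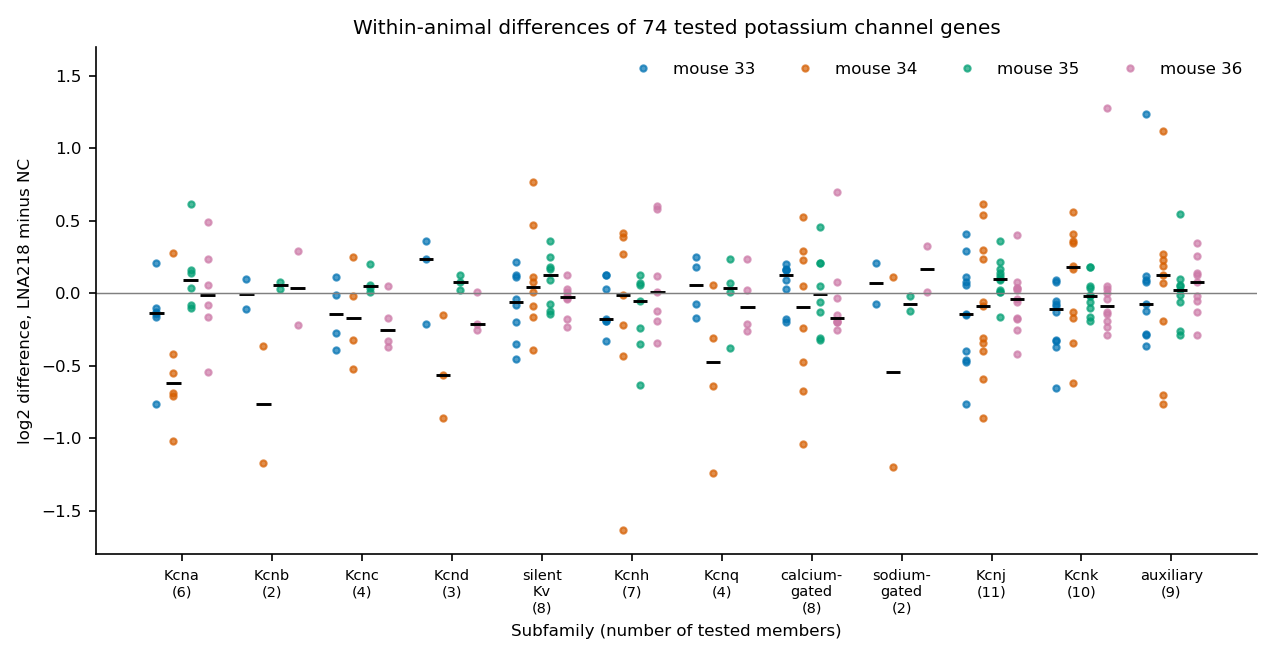
Within-animal log2 differences (LNA218 minus NC) of the 74 tested members, by subfamily, with 1 point per member and animal and a black bar at the median of each animal. Mouse 34 spreads widest, down to -1.63 for Kcnh7, and its bar is the lowest in Kcna, Kcnb, Kcnd, Kcnq and the sodium-gated pair. The bars of the other 3 animals lie on either side of 0, except in Kcnk, where all 3 lie below it.

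In mice 34 and 33 the members' differences followed the base composition of their transcripts, in opposite directions. In mouse 34 the largest negative differences were those of Kcnh7 (-1.63), Kcnq3 (-1.24), the sodium-gated Kcnt2 (-1.20), the delayed rectifier Kcnb2 (-1.17), Kcnma1 (-1.04) and Kcna1 (-1.02). Of these, Kcnh7 has 39.6% GC, Kcnb2 39.3%, Kcnt2 42.7%, Kcnq3 44.4% and Kcnma1 and Kcna1 50.1% each, against a median of 53.9% over the 74 members. The 37 members below that median had a median difference of -0.388 in mouse 34 and the 37 above it 0.188. In mouse 33 the order was the reverse, with 0.094 and -0.188, and mice 35 (0.014 and 0.053) and 36 (-0.039 and -0.032) showed little of it. Marker lists differed as well, and not in mouse 34 alone. For mice 33, 34, 35 and 36 the mean log2 difference was 0.91, 4.26, 0.27 and 3.21 over choroid plexus genes and -0.87, 0.94, -0.44 and 0.82 over striatal genes. It was 0.17, -0.43, 0.21 and 0.54 over thalamic genes, -0.20, 0.32, -0.24 and 0.08 over oligodendrocyte genes and 0.17, -0.23, 0.11 and -0.13 over astrocyte genes. Over cortical excitatory neurons, interneurons, endothelium and mural cells, and microglia it lay between -0.18 and 0.21 in every animal. These means hold single markers that went opposite ways in mouse 34. There, Neurod6 had 85.4 CPM in LNA218 and 147 in NC, but Slc17a7 1840 and 1660. Gad2 had 74.6 and 124, but Sst 359 and 218. Rgs5 had 33 and 55.9, but Cldn5 71.6 and 39. P2ry12 had 7.8 and 23.5, but C1qa 111 and 66.1. The part of these tissues and cell types in the members' differences was not tested.

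Spearman's correlation between GC content and difference over the 74 members was -0.549, 0.689, 0.192 and -0.110 for mice 33, 34, 35 and 36. Over the 10331 more abundant genes (mean log2 CPM over 3) it was -0.617, 0.688, 0.231 and -0.212, so the members followed the same order as the whole table in each animal. Genes within an animal share the same pair of libraries, and these correlations are descriptions across genes. With a correction for GC content and length the members' median was -0.044, and the Kcna, Kcnd and Kcnq medians were -0.080, -0.083 and -0.065. Under that correction Kcna2 had a log2 fold change of -0.09 ± 0.06, Kcnq3 of -0.18 ± 0.09 and Kcnh7 of -0.12 ± 0.17, whereas Kcna1 stayed at -0.36 ± 0.16 and Kcnma1 at -0.29 ± 0.18 (SE).

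**Figure D4:**
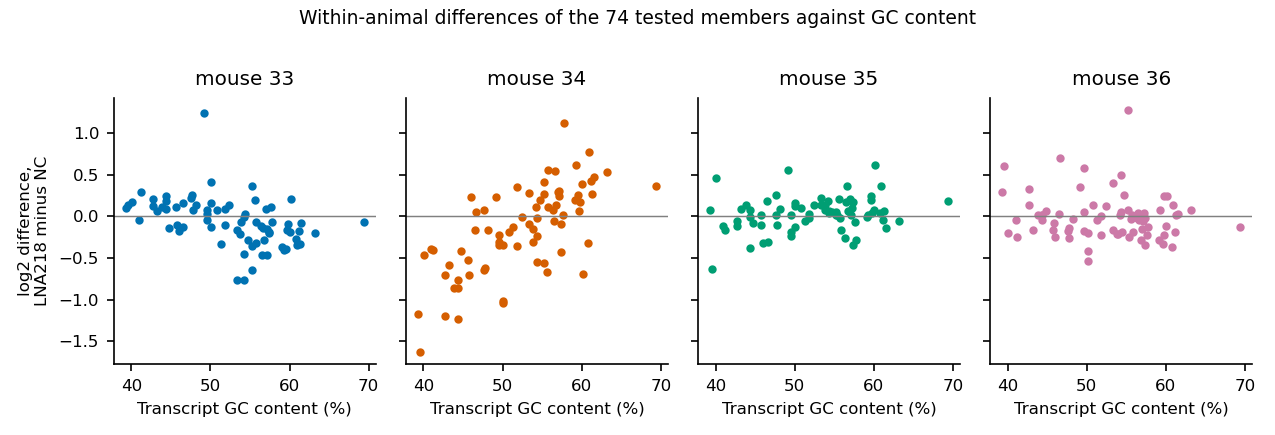
Within-animal log2 difference (LNA218 minus NC) of each of the 74 tested members against the GC content of its reference transcript, in a panel per animal. The points climb with GC content in mouse 34 (Spearman 0.689) and descend in mouse 33 (-0.549), with weaker slopes in mice 35 (0.192) and 36 (-0.110).

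Spread between animals was wider on the inhibitor side. The SD of log2 CPM was larger in LNA218 than in NC in 61 of 74 members (82.4%), against 75.2% of all tested genes. Without mouse 34 it was larger in 55 members (74.3%; all genes 75.0%). The LNA218 library of mouse 34 held the lowest of the 8 values in 26 members (35.1%; all genes 25.8%), and that of mouse 35 the highest in 20 (27.0%; all genes 12.7%). In NC the steadiest members were Kcnab2, at 879, 837, 876 and 885 CPM, and Kcna6, at 117, 112, 120 and 120 CPM, with coefficients of variation of 2.54% and 3.04%.

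Members that hold a miR-218-5p seed match had a median close to 0, with single genes on both sides. The 16 tested members with a match had a median log2 fold change of 0.008 (0.085, -0.083, 0.026 and 0.016 by animal), the 7 with an 8mer also 0.008, and the 56 with none -0.052. Members with a match reached from -0.38 ± 0.32 (SE) in Kcnh7, which holds 1 site, and -0.35 ± 0.22 in Kcnq3, which holds 2, to 0.25 ± 0.39 in Kcnk5, which holds 1. Over all tested genes the corresponding medians were -0.040, -0.033 and -0.003. With the correction for GC content and length the members' medians were 0.036, 0.042 and -0.046, and those of all genes 0.014, 0.029 and 0.002. The 8mer members had median differences of 0.094, -0.005, 0.055 and 0.017 in mice 33, 34, 35 and 36.

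Kcnh1, the ether-a-go-go channel, has its 8mer site 74 bases from the end of the 3′ UTR. It had 93.0, 78.3, 85.0 and 76.8 CPM in LNA218 and 85.1, 78.6, 77.7 and 70.5 in NC. It was above its control in mice 33, 35 and 36 by nearly the same amount (0.13, 0.13 and 0.12 on the log2 scale) and level in mouse 34 (-0.01), with groups that overlapped. The log2 fold change was 0.09 ± 0.09 (SE), with a 95% interval of -0.12 to 0.31. With the correction for GC content and length it was 0.16 ± 0.06, higher in 4 of 4 animals (0.12, 0.20, 0.06 and 0.24), with an adjusted p of 0.945 (edgeR's quasi-likelihood test with Benjamini-Hochberg adjustment). Under that correction 4 members were higher in every animal, and the share over all genes was not counted. In the authors' deposited table Kcnh1 had a log2 fold change of 0.26 and an adjusted p of 0.153, the smallest of the 77 members there.

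Kcnk1 had 137, 150, 129 and 127 CPM in LNA218 and 128, 118, 131 and 127 in NC. Mouse 34 alone differed by much, and the log2 fold change was 0.11 ± 0.10 (SE). Kcnip3, a calcium-binding subunit of Kcnd channels that also acts as a transcriptional repressor and carries both sites printed above, had 107, 137, 153 and 147 CPM in LNA218 and 132, 120, 148 and 123 in NC. Mouse 33 went down and mice 34 and 36 went up, with a log2 fold change of 0.05 ± 0.11. Kcnt1, at 81.3, 77.8, 89.1 and 78.3 CPM in LNA218 and 85.3, 72.3, 90.3 and 77.5 in NC, was almost level in every animal.

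The remaining 8mer members were at or below their controls on average. Kcnj16, which assembles with Kcnj10 in glia, had a log2 fold change of -0.15 ± 0.15 (SE), from 17.3, 13.1, 15.4 and 16.7 CPM in LNA218 and 16.7, 19.7, 14.4 and 18.8 in NC. Kcnb2 had 18.3, 8.04, 15.9 and 15.4 CPM in LNA218 and 17, 18.2, 15 and 12.6 in NC, above its control in 3 animals and far below it in mouse 34. Its log2 fold change of -0.17 was 0.16 without mouse 34 and 0.11 with the correction for GC content and length. Kcnq3 is described above, and its correction value of -0.18 was the lowest of the 8mer members.

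**Figure D5:**
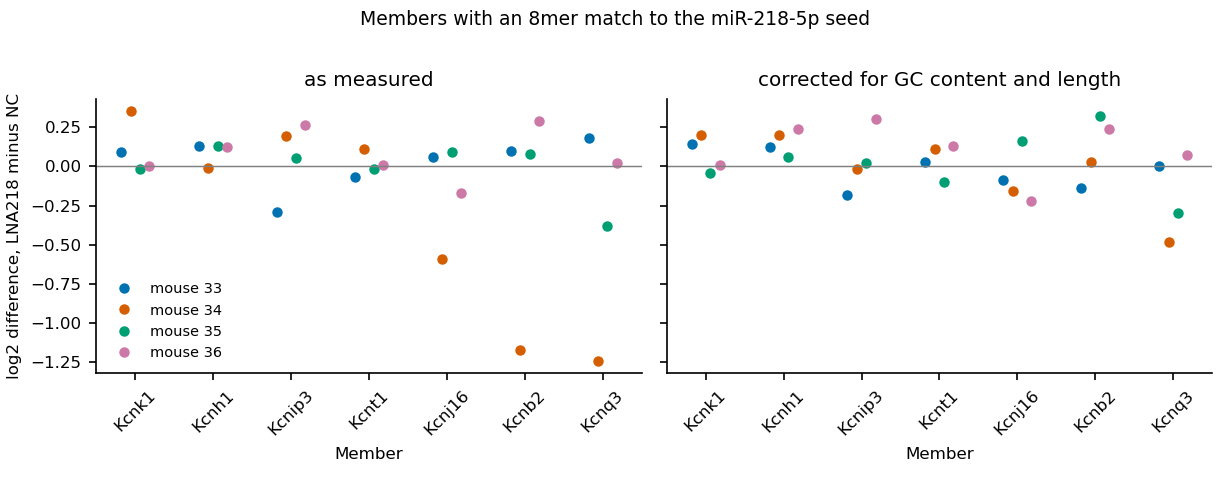
Within-animal log2 differences (LNA218 minus NC) of the 7 members with an 8mer match to the miR-218-5p seed, as measured (left) and with the correction for GC content and length (right). The far-off points of mouse 34 for Kcnq3 (-1.24) and Kcnb2 (-1.17) move to -0.48 and 0.03, and the 4 points of Kcnh1 come to lie above 0.

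Kcne2, an auxiliary subunit that is abundant in choroid plexus epithelium, did not pass the filter and stood apart in its pattern. Its estimated counts were 5, 181, 0 and 123 in LNA218 of mice 33, 34, 35 and 36 and 3, 1, 3 and 4 in NC. On the LNA218 side it was at 7.24 CPM in mouse 34 and 6.47 in mouse 36, and it was at or below 0.282 CPM in the other 6 libraries. Those are the same libraries in which the summed choroid plexus markers reached 2630 and 1720 CPM, and the part of that tissue in the Kcne2 counts was not tested. Kcng3, a silent subunit, and Kcnrg were at or below 0.732 CPM in each library.

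Partners of these channels, 33 genes of which 32 were in the table and tested, stood as close to their controls. None passed, 12 were above 0 and 20 below, with a median log2 fold change of -0.01, the same as over all tested genes. The smallest p values belonged to Adam22, a receptor at Kcna channel complexes, to Gabbr2, a subunit of the GABA-B receptor that opens Kcnj channels, and to Ank3, the scaffold of the axon initial segment. Adam22 had 178, 114, 154 and 137 CPM in LNA218 and 165, 178, 165 and 148 in NC. Its log2 fold change of -0.19 ± 0.13 (SE) was -0.03 without mouse 34 and -0.28 without mouse 33. Gabbr2 and Ank3 stood at -0.15 ± 0.10 and -0.17 ± 0.14 (-0.07 and 0.01 without mouse 34). Gabbr2 was at -0.22 without mouse 35 and Ank3 at -0.24 without mouse 36. All 3 partners had their lowest difference in mouse 34 (-0.64, -0.37 and -0.72).

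In the authors' deposited table, 0 of 77 members had an adjusted p under 0.05, against 35 of 14884 genes (0.235%). By the authors' deposited table the log2 fold change was above 0 in 38 members and below 0 in 39, and 6 had an unadjusted p under 0.05 (Kcna3, Kcnab2, Kcnh1, Kcnip2, Kcnk12 and Kcnk13), where 9.85% of all its genes did. The authors' deposited table gave Kcna1 a log2 fold change of 0.11 and Kcne4 of 0.44. It gave Kcne2 -0.87, a sign opposite to that of the deposited counts. Kcne2 was not alone in this. Other members with a sign opposite to the reported test included Kcna1 (-0.38 here), Kcnb2 (0.12 there, -0.17 here) and Kcnj3 (0.09 there, -0.14 here). The terms of the model behind the authors' values are unknown here.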

How the data were processed

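Per the submitters' processing notes, Salmon, edgeR and the build GRCm39 were used, with no version or role given. The authors deposited estimated counts per gene and a table of the LNA218 against NC comparison with log2 fold changes, p-values and a likelihood-ratio score. Annotation and use of strand are unknown, so reads of an overlapping antisense gene could not be told apart.

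Estimated counts were rounded to whole numbers and genes were kept by edgeR's filterByExpr (minimum count 10; 378 genes removed). Differences were tested by quasi-likelihood in edgeR 4.0.16 (R 4.3.3), after TMM scaling, with animal as block and robust dispersions. P-values were adjusted by Benjamini-Hochberg over 14506 genes. The pairing comes from the labels, which give both hemispheres of an animal. CPM values are TMM-scaled, and within-animal differences are on log2 CPM with a prior count of 2. The standard error was taken from the F statistic, and its median was 0.14 on the log2 scale for the members and for all genes.

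Length, GC content and 3′ UTRs came from the GENCODE M21 transcript with the longest coding sequence, matched by symbol (77 of 77 members, 98.3% of the table). That set is built on GRCm38, so no coordinates are given. The correction for GC content and length used splines with 5 degrees of freedom per library. Alternatives also used DESeq2 1.42.0 and limma 3.58.1. The test was run on simulated data, where it made 8 false calls among 14189 unchanged genes. No 2 libraries agreed within sampling noise.

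The members, the partner and marker lists and the tests were chosen with earlier results of these data known. The genes named were the 10 members with the smallest p, the member with the highest CPM in each subfamily, members with an 8mer match and the 3 partners with the smallest p. Others were named after their values were seen. Of the members taken by this rule, 3 are not reported here, though counts and medians over members include them.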

Additional observations from a re-analysis of the deposited data

Results flagged for a closer look

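Sets of 4 values were screened for a value that stood apart from the other 3. They were the CPM in each group of the members and partners picked by rule and the within-animal differences of those members. The median differences over all members and by subfamily were screened as well. Of 88 sets of 4 values, 3 had one (3.41%), and chance alone would mark about 1 set in 20. All of them were differences of mouse 34. In Kcna2 its log2 difference was -0.71, against -0.10, -0.10 and -0.08 in the other animals. In Kcnb2 it was -1.17, where the others lay between 0.08 and 0.29. In Kcnh1 it was -0.01, where the others lay at 0.12 and 0.13.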

How the results depend on the processing

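No member passed an adjusted p of 0.05 under any alternative run, nor 0.1 in the reported test. The count of members at an unadjusted p under 0.05, 0 in the reported test, was 1 with no low-count filter (Kcne2), 1 with DESeq2 (Kcna1), 2 with the correction for GC content and length (Kcnh1 among them) and 0 to 3 with an animal left out. Members lower in every animal numbered 6 to 10 with an animal left out, where 3 animals have to share a sign. Members higher in every animal numbered 3 with upper-quartile scaling, 4 with the correction for GC content and length and 3 to 11 with an animal left out. Under these alternatives the shares over all genes were not counted, so these member counts cannot be read as a result about the members. Over all genes DESeq2 called 13, the likelihood-ratio test 11, and leaving out an animal 0 to 12 (12 without mouse 34). The Kcnj median ranged from -0.120 to 0.058 with an animal left out. Without the replicate block the members' median was -0.038 and 0 were called, so the block changed no call.

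Of the 74 tested members, 42 changed sign under at least 1 alternative; among the genes picked by rule 6 members and the partner Ank3 did. With a hemisphere term Kcnf1 was at 0.03, Kcnh3 at -0.01 and Kcnt1 at 0.00. With the correction for GC content and length Kcnh3 was at -0.02 and Kcnb2 at 0.11. With an animal left out, log2 fold changes ran from -0.26 to 0.11 for Kcnd2, -0.11 to 0.10 for Kcnf1, -0.13 to 0.07 for Kcnh3, -0.02 to 0.04 for Kcnt1, -0.02 to 0.17 for Kcnip3, -0.32 to 0.16 for Kcnb2 and -0.24 to 0.01 for Ank3. Why these values moved was not tested. Low counts limit the precision of members near 1 CPM, such as Kcnk5 with a standard error of 0.39, and 4 animals limit all members.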
